A study of Homo sapiens with 5 samples.

Results

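The mitochondrial ribosomal protein genes, named MRPL or MRPS and a number, were described by the histone H3 lysine 27 acetylation (H3K27ac) at their promoters. Members were the protein-coding genes of the GENCODE release 44 annotation whose symbol starts with MRPL or MRPS followed by a digit, and the promoter peak of a gene was a peak whose centre lay within 1000 bp of the start of any of its annotated transcripts. If there were several, the peak with the highest mean signal was taken. The annotation held 78 such genes, and all 78 had a promoter peak, compared with 11721 of 20020 protein-coding genes (58.5%). The 78 genes used 77 distinct peaks out of 10057 distinct promoter peaks and 20087 peaks in the whole table, because MRPS11 and MRPL46 share one. Membership follows the symbol and no measured value, although the family was picked with earlier results of these data known. The choice among several peaks of a gene used the measured mean signal, for members and other genes alike.

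HCT116 is a human colorectal carcinoma line. All libraries came from one derivative of it, HCT116 CMV-osTIR1 RAD21-mAC, in which the plant auxin receptor osTIR1 is expressed from a CMV promoter and the cohesin subunit RAD21 carries a degron tag, and all cells had been kept in 0.1% DMSO for 6 h. Chromatin from 500000 cells, fixed in 1% formaldehyde for 10 min, was immunoprecipitated for H3K27ac in 2 libraries after 1000 unit/ml interferon beta (IFN-β) for 1 h and in 2 control libraries with no further treatment, next to 1 input library. The labels give 60 min for the IFN-β libraries and 0 min for the control libraries, so the treatment and 1 h of culture cannot be told apart. Control and IFN-β cells carried the same tag and receptor, and the results describe this one derived line.

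The signal of a peak is given on the log2 scale, as normalized reads averaged within a group. Every value below is the authors' mean over the 2 libraries of a group. The table gives no value per library, so no error between replicates can be stated, no test was run, and genes that stand next to each other in the order of signal cannot be called different. Depth per library is likewise unknown from the table. Promoters of 7 of 10 colon epithelial markers had a peak in these cells, with control signals between 4.48 and 7.10, the highest at EPCAM. No peak was found at VIL1, CDX1 and HNF4A. KRT8 and KRT18 count separately but had the same values, 6.52 in control cells and 5.88 after IFN-β. Whether they share a single peak was not checked. Of 11 markers of other cell types only COL1A1 had a promoter peak, at 5.24. A lower signal in a population can mean fewer cells with the mark or less of it per cell, and these cannot be told apart.

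Mitochondria have their own ribosomes, which translate the few proteins that mitochondrial DNA encodes, all of them parts of the respiratory chain and ATP synthase. The ribosomal RNA comes from mitochondrial DNA. All proteins of the large (mostly MRPL) and small (mostly MRPS) subunit are encoded in the nucleus, made in the cytosol and imported. Part of them descend from bacterial ribosomal proteins and the rest are specific to mitochondria. H3K27ac marks nucleosomes next to the start sites of active genes, and promoters of such housekeeping genes are usually rich in CpG and often hold sites for the factors NRF1, GABP (an ETS factor) and YY1.

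Sequences are shown first for sites of YY1, because its share in these promoters exceeded that in other promoters by the largest ratio of the 10 motifs searched. The motif searched was AAGATGGCG on both strands, in the 250 bases before and the 50 bases after the start site nearest to the peak centre. It occurred in 12 of 78 members (15.4%), against 482 of 11643 other genes with a promoter peak (4.14%). In 8 of the 12 members (66.7%) the match lay on the sense strand downstream of the start site and held the annotated start codon ATG, so that the same letters open the coding sequence. Among the other genes with a match, 193 of 482 (40.0%) had it in sense orientation downstream of the start and 226 (46.9%) had it over the start codon. Below are 4 of these 8 sites, of the genes whose signal is described further on, each as 29 bases of GRCh38 in the direction of transcription with the motif in capitals.
MRPS24 (chr7:43869480-43869508, minus strand): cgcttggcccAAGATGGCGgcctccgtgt
MRPL46 (chr15:88467362-88467390, minus strand): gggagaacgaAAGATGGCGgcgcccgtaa
MRPS30 (chr5:44808950-44808978, plus strand): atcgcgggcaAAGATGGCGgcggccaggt
MRPL22 (chr5:154941098-154941126, plus strand): gggagggcgaAAGATGGCGgcggcagtac
Counting the start site as position 1, the match began at position 10 in MRPS24, 11 in MRPL46, 14 in MRPS30 and 36 in MRPL22. In control cells MRPL46 and MRPS30 had the same signal of 6.41, above MRPL22 at 4.65 and MRPS24 at 4.18, and after IFN-β their differences were -0.68, -1.19, -0.85 and -0.28.

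The next sequences show how short some promoters of these genes are. Of the 78 members, 30 (38.5%) were divergent, meaning that the start of another protein-coding gene on the opposite strand lay within 1000 bp upstream. In the 2 examples here both genes of a pair have mitochondrial products, and the bases from 10 past one start to 10 past the other are printed, on the strand of the MRPL gene, with a motif in capitals.
MRPL36 and NDUFS6 (chr5:1801356-1801417, minus strand): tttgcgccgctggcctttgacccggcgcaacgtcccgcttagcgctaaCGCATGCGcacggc
MRPL47 and NDUFB5 (chr3:179604639-179604700, minus strand): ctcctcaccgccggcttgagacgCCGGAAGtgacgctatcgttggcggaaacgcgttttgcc
In both the starts were 41 bp apart. NDUFS6 and NDUFB5 encode subunits of respiratory complex I. The capitals mark an NRF1 match (CGCANGCG) in the former and an ETS match (CCGGAAG) in the latter.

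In control cells the H3K27ac signal of the members had a median of 5.76, with quartiles of 5.29 and 6.20 and a range from -0.17 to 7.63. The median of the 11643 other genes with a promoter peak was 5.66. Of the members, 43 of 78 (55.1%) were above that median, 5 (6.41%) were among the highest 10% of the other genes and 3 (3.85%) among their lowest 10%. The members thus clustered around the middle of active promoters, with few at either end. Genes of the cytosolic ribosome stood higher, with a median of 6.34 over 76 genes, of which 18 (23.7%) were among the highest 10%. After IFN-β the median of the members was 4.99 and that of the other genes 4.92.

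**Figure D1:**
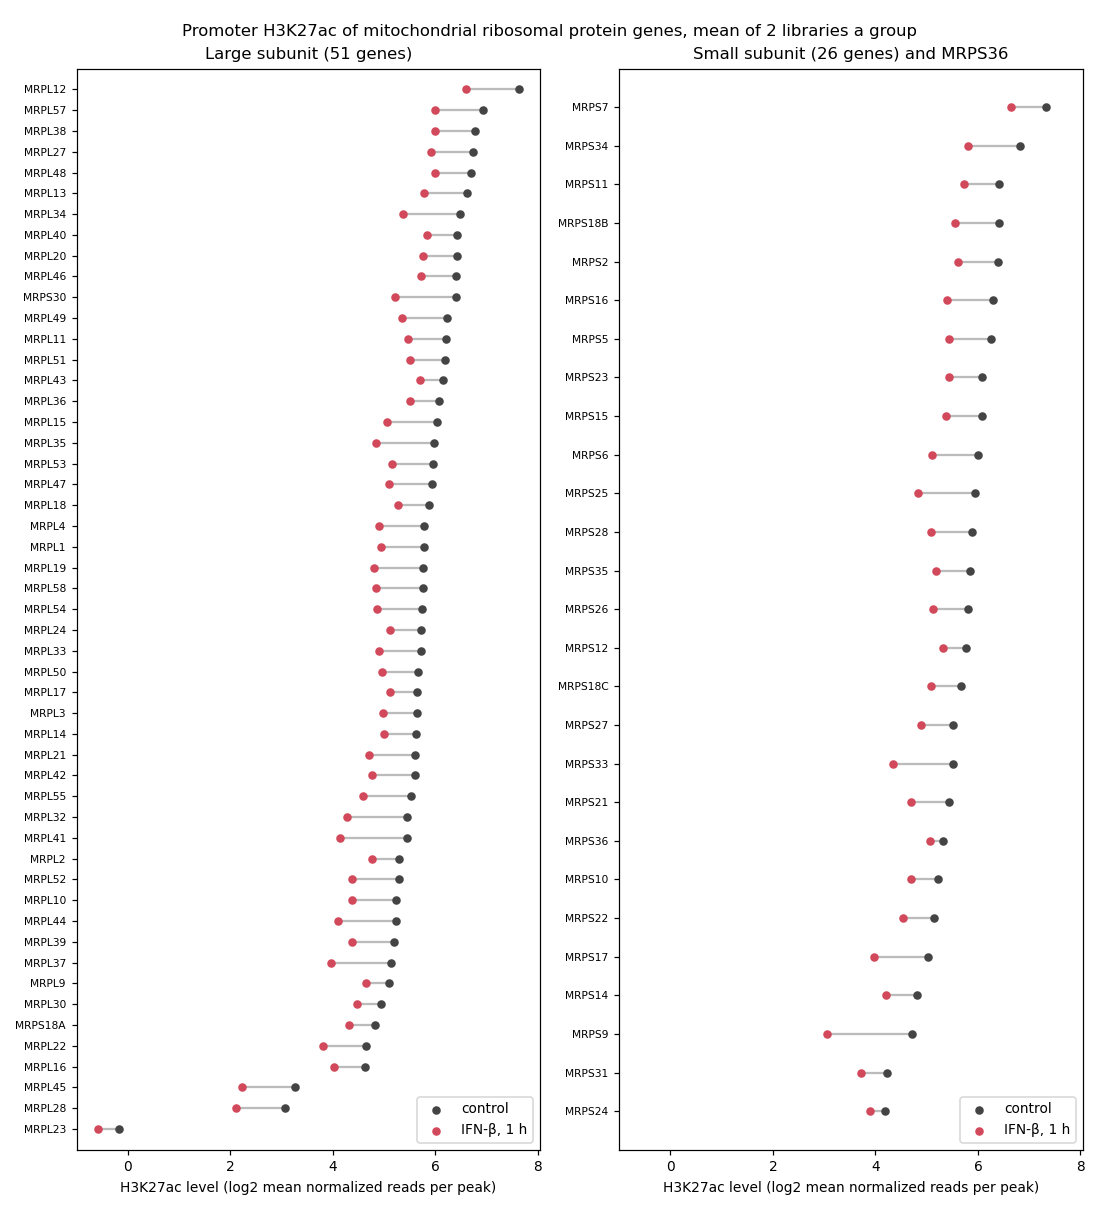
H3K27ac signal (x axis, log2 mean normalized reads per peak) at the promoter peak of each of the 78 genes, large subunit at left, small subunit and MRPS36 at right, ordered by control signal. Black points are the control mean and red points the IFN-β mean of 2 libraries, joined by a line, and the red point lies left of the black one in every row, from MRPL12 at the top (7.63 and 6.59) to MRPL23 at the bottom (-0.17 and -0.59).

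The highest control signal belonged to MRPL12, the stalk protein of the large subunit to which translation factors dock, with a value of 7.63 in the control group and 6.59 in the IFN-β group. Its peak (chr17:81703177-81704177, centre in an intron) exceeded 99.3% of all genes with a promoter peak. MRPS7, a protein of the head of the small subunit with a bacterial counterpart, followed at 7.33 and 6.65, with its peak (chr17:75261372-75262372) centred 7 bp from the start in an untranslated exon. The gap between control and IFN-β was wider for MRPL12 than for MRPS7, so that their listed means stood in the opposite order after IFN-β.

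Among the next 6 genes, 4 are mitochondrion-specific and 2 have bacterial counterparts. MRPL57 was at 6.94 in control cells and 5.99 after IFN-β. MRPS34 of the small subunit was at 6.82 and 5.81. MRPL38 had values of 6.78 and 5.99, and MRPL48 of 6.69 and 6.00. After IFN-β these 4 mitochondrion-specific genes lay between 5.81 and 6.00. MRPL27, whose product lies close to the peptidyl transferase centre, was at 6.74 and 5.92. MRPL13 was at 6.62 and 5.78. Both were among the bacterial-type proteins of the large subunit.

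At the other end, MRPL23, a large subunit protein at the exit of the nascent chain tunnel, was listed at -0.17 in control cells and -0.59 after IFN-β. These are the lowest values that the table holds in each group, and 460 of 20087 peaks (2.29%) stood at both of them, among them the promoter peaks of 85 of 11721 genes (0.725%). In the peak of MRPL23 (chr11:1947372-1948372) every one of its 970 words of 31 bases occurred again in the reference, all of them on a copy in an unlocalized sequence of chromosome 11 with a length of 100316 bp. All 85 genes at these lowest values had more than 50% of their 31-base words repeated. The value of MRPL23 is given as listed, and the part of the repeated sequence in it was not tested.

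MRPL28 had the next lowest control signal at 3.06, with 2.11 after IFN-β, and its peak (chr16:369758-370758) was centred 24 bp from a start in an intron. MRPL45, whose product holds the ribosome at the inner membrane, was at 3.26 and 2.22. Of its 31-base words 67.5% were repeated, and it was besides MRPL23 the only member above 50%, against 188 of 11643 other genes (1.61%). No repeat was found in 52 of 78 members, against 8056 of 11643 other genes, a similar share. These shares leave out the alternate sequences of the reference. With them counted, the peaks of MRPS36 and MRPS18B were repeated over 100% of their words and that of MRPL45 over 92.7%. In MRPL28 6.70% of the words were repeated, and its control signal exceeded that of 2.58% of all genes with a promoter peak.

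MRPS24, which sits where messenger RNA enters the small subunit, was at 4.18 in control cells and 3.90 after IFN-β. MRPS31 was at 4.22 and 3.71. MRPL16, a bacterial-type large subunit protein, was at 4.63 and 4.02. Those 3 genes lost less between the groups than most members. MRPL22, which lines the nascent chain tunnel, was at 4.65 and 3.80. MRPS9, of the head of the small subunit, was at 4.72 and 3.06, and so moved from the eighth lowest place to the fourth lowest.

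After IFN-β, the listed signal was lower than in the control at all 78 genes, and none was higher (0 of 78). For MRPL23, at the lowest value of the table in both groups, the listed -0.42 is not a measured drop. MRPS11 and MRPL46 count separately here although they share a peak. Over all genes with a promoter peak 2.09% were higher, and the median difference was -0.76 for the other genes and -0.69 for all 20087 peaks. The summed normalized reads of all peaks were 540427 in the IFN-β group and 876825 in the control group, so the direction at these genes is that of the table as a whole. The median difference of the members was -0.80 on the log2 scale, with quartiles of -0.92 and -0.62, a range from -1.66 to -0.26 and an SD across genes of 0.24. A difference below -1, a drop to less than 50% of the control, was found at 14 of 78 members (17.9%), against 17.7% over all genes with a promoter peak. The share among the members was thus that of the background. Taken relative to the median of all genes with a promoter peak, which splits those genes evenly by definition, 36 of 78 members were higher. None was lower than this median by more than 1, and the share of other genes beyond that limit was not counted.

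The difference after IFN-β also varied somewhat with the mean signal. Each member was therefore set beside the promoter peaks of other genes whose mean signal over all 4 libraries lay within 0.25 of its own. Between 74 and 2141 peaks matched a member, and their median differences ran from -0.86 to -0.42, or to -0.59 without MRPL23. The members were lower than their matched median in 40 genes, higher in 36 and equal in 2, with a median offset of -0.02. Within 0.25 of the matched median were 59 of 78 members (75.6%). Only MRPS9 and MRPL41 were more than 0.5 below it and no member was more than 0.5 above it. These shares were not computed for other promoter peaks, so they cannot be called particular to the members. MRPL23 is among the equal ones because its own difference and its matched median are both the -0.42 of the lowest values. At matched mean signal, control and IFN-β signals are tied to each other through their mean, so only the difference was compared in this way.

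**Figure D2:**
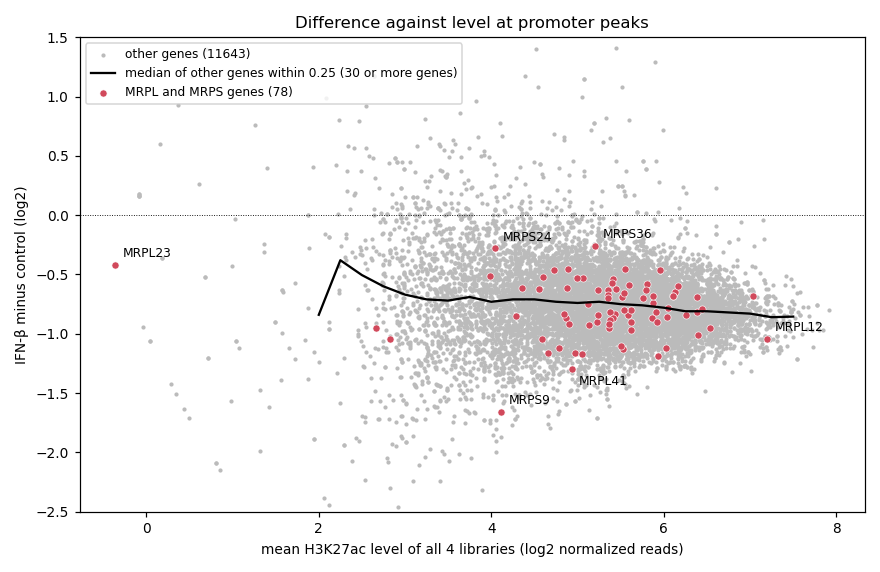
Difference between IFN-β and control (y axis, log2) against the mean signal of all 4 libraries (x axis, log2 normalized reads) for the promoter peaks of the 78 MRPL and MRPS genes (red) and 11643 other genes (grey), with the running median of other genes (black line, drawn where at least 30 genes lie within 0.25) and 12 other genes beyond the y axis. The red points scatter around the black line, 40 below and 36 above their matched medians, with MRPS9 (-1.66) lowest and MRPS36 (-0.26) highest.

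MRPS9 had the lowest difference of all members. Its peak (chr2:105037824-105038824, centre in an intron) was at 4.72 in the control group and 3.06 after IFN-β, a difference of -1.66 or 0.316 of the control, while the 921 matched peaks had a median of -0.71 and 1.41% of them were lower. MRPL41, a mitochondrion-specific protein of the large subunit, was at 5.44 and 4.14 (chr9:137551559-137552559, intron), a difference of -1.30 against a matched median of -0.74, with 2.43% of matched peaks lower. Neither value carries a replicate error, and each lies inside the spread of the matched peaks.

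MRPS30, named for the small subunit and placed by structures in the large one, was at 6.41 and 5.22, a difference of -1.19. Of its matched peaks, 2.02% were lower. MRPS33 was at 5.52 and 4.35 (-1.17), and MRPL37 at 5.13 and 3.97 (-1.16). MRPL32, a bacterial-type protein that a protease of the inner membrane matures before assembly, was at 5.44 and 4.28 (-1.16). These 6 genes include both subunits and 4 mitochondrion-specific proteins, and their control signals spanned 4.72 to 6.41.

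The smallest difference was found at MRPS36, where the signal was 5.32 in control cells and 5.06 after IFN-β, a difference of -0.26, higher than 95.8% of its matched peaks. MRPS36 bears the name of the family, but its product is a component of the 2-oxoglutarate dehydrogenase complex and no part of the mammalian mitochondrial ribosome. It was kept because the choice followed the symbol. All words of its peak recur when alternate sequences of the reference are counted, and 0.309% without them. Within the ribosome, MRPS24 came first with a difference of -0.28 (86.7% of matched peaks lower). MRPL23, at the lowest values of the table, has a listed difference of -0.42 that is the same for every gene there.

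MRPL9 was at 5.10 and 4.65 (-0.45), and MRPS12, a protein of the decoding centre, at 5.76 and 5.31 (-0.45). MRPL30 was at 4.94 and 4.48, and MRPL43 at 6.16 and 5.70 (both -0.46). MRPL43 was higher than 92.6% of its matched peaks, while MRPL30 was higher than 81.6%. These 4 genes, with the smallest measured differences after MRPS36 and MRPS24, all had a divergent promoter. The share was 38.5% over all members and 21.2% over other genes. MRPS36 and MRPS24 themselves were not divergent, nor were the next in order, MRPS31 (-0.51) and MRPS18A (-0.52). The neighbours of MRPL9 and MRPL30 are OAZ3 and MITD1.

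By subunit, the 51 genes of the large subunit had a median control signal of 5.75 and a median difference of -0.83, and 9 (17.6%) were lower by more than 1. For the 26 genes of the small subunit the values were 5.83, -0.70 and 5 (19.2%). MRPS30 and MRPS18A were counted with the large subunit and MRPS36 with neither. The medians were 0.14 apart on the log2 scale, and the SD across genes was 0.21 in the large and 0.27 in the small subunit. The 46 genes with bacterial counterparts and the 31 mitochondrion-specific genes were alike in control signal (5.75 and 5.81) and in difference (-0.79 and -0.83). More than 1 lower were 6 (13.0%) of the former and 8 (25.8%) of the latter. In this split MRPS18C was counted with the bacterial counterparts, and MRPS18A and MRPS18B as mitochondrion-specific. Whether these groups differ was not tested.

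Control and IFN-β signals ranked the members almost alike (Spearman 0.949 across 78 genes, 0.957 across other genes). These genes share the 4 libraries, so the value describes the order only. Control signal and difference were weakly related (Spearman -0.142, without MRPL23 -0.109, other genes -0.224). The control signal enters the difference with a minus sign, so a negative value can arise from that alone.

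The peaks sat close to the starts, as those of other genes did under the same limit of 1000 bp. The distance of the centre from the nearest start had a median of 142 bp, against 148 bp for other genes. Within 500 bp lay 77 of 78 members (98.7%), against 93.8% of other genes. The exception was MRPS18B at 631 bp, followed by MRPL40 at 497 bp and MRPS23 at 494 bp. Centres lay in an intron in 25 members, outside the gene in 26, in a coding exon in 13, in an untranslated exon in 13 and in an exon of a noncoding transcript in 1. Most peaks were exactly 1000 bp wide, the lowest width among all 20087 peaks, and 3 (3.85%, other genes 10.1%) were wider. These were MRPS14 at 1638 bp with signals of 4.82 and 4.20, MRPL50 at 1695 bp with 5.66 and 4.96, and MRPL24 at 1778 bp with 5.73 and 5.11. In control cells all 3 were below the median of the members, while after IFN-β MRPL24 was above it. More than 1 promoter peak was found for 3 members (3.85%, other genes 11.7%), namely MRPL34 (3), MRPL11 (2) and MRPS27 (2).

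Divergent promoters made up 38.5% of the members, as given with the sequences above, compared with 2464 of 11643 other genes (21.2%) and 18 of 76 cytosolic ribosomal protein genes (23.7%). The same order was seen with a limit of 500 bp (34.6% against 19.2%) and when partners of any gene type were counted (46.2% against 36.6%). Among other genes whose GC content lay within the quartiles of the members, 24.8% were divergent. The distance to the partner ranged from 17 to 990 bp with a median of 172 bp, and 25 of the 30 partners started within 300 bp. In all 30 cases the partner had the same promoter peak, so the signal belongs to both genes and cannot be divided between them. With starts in any orientation counted, another protein-coding start lay within 1000 bp of the centre in 33 of 78 members (42.3%), against 29.1% of other genes.

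For 7 of the 30, picked out after their values were seen, the partner also has a mitochondrial product. MRPS11 and MRPL46 are both among the 7, each as the partner of the other. Such partners were not counted among the divergent other genes, so this share cannot be called particular to the members. MRPS11 and MRPL46, of the small and the large subunit, share a single peak (chr15:88467099-88468099) at 6.41 in control cells and 5.73 after IFN-β, a difference of -0.68. MRPL36 with NDUFS6 was at 6.08 and 5.50 (-0.58), and MRPL47 with NDUFB5 at 5.94 and 5.10 (-0.84). MRPL43 starts 103 bp from TWNK, the helicase of mitochondrial DNA. MRPS12 starts 181 bp from SARS2, which charges mitochondrial tRNA with serine. MRPS27 starts 176 bp from PTCD2 and was at 5.52 and 4.89 (-0.63). The differences of these 7 genes ran from -0.84 to -0.45.

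Over all 30 divergent members the median control signal was 5.91 and the median difference -0.69, with 3 (10.0%) lower by more than 1. The other 48 members had 5.73 and -0.82, with 11 (22.9%) lower by more than 1. Among the other genes, divergent and remaining promoters had medians of -0.75 and -0.76, close to each other. The gap among the members was not tested, and the SD across genes was 0.20 in divergent and 0.26 in other members.

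The promoters were less GC-rich than most. Within the 1000 bp around the peak centre, the median GC content was 58.4% for the members, 64.5% for other genes and 57.7% for cytosolic ribosomal protein genes, and the members ranged from 43.6% (MRPL54) to 80.5% (MRPS6). The ratio of observed to expected CpG was closer, at 0.759 against 0.792. Among members GC content was related weakly to the control signal (Spearman 0.253) and hardly to the difference (-0.026), and in other genes the values were 0.165 and -0.164. All genes share the libraries here too.

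Motifs were counted as exact letters on both strands in the 300 bases around the start, each gene once. No motif of the set contains another. ETS sites (CCGGAAG) were found in 27 of 78 members (34.6%), in 20.0% of other genes and in 26.5% of the 4288 other genes within the GC quartiles of the members (53.7% to 63.7%). In 19 of these 27 genes (70.4%) a match lay within 100 bases upstream of the start, against 57.1% of other genes with a match. NRF1 sites (CGCANGCG, of which those with T at N read the same on both strands) were found in 19 members (24.4%), in 19.2% of other genes and in 10.5% of cytosolic ribosomal protein genes. For YY1, other genes within the GC quartiles held a site in 4.90%, close to the 4.14% over all of them, and cytosolic ribosomal protein genes in 9.21%. At least one of these 3 motifs was present in 50 of 78 members (64.1%), against 37.6% of other genes. MRPL52, MRPS10 and MRPS18A held both YY1 and ETS letters, with differences of -0.92, -0.53 and -0.52.

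The GC box (GGGCGG) was less frequent in members, at 46 of 78 (59.0%), than in other genes (75.8%, or 69.0% within the GC quartiles). The E-box (CACGTG) occurred in 8 members (10.3%, other genes 9.68%) and the CCAAT box (CCAATCA) in 7 (8.97%, other genes 8.25%). The TATA box (TATAAA) was found in 2 members (2.56%, other genes 3.56%), the CRE (TGACGTCA) in MRPL4 alone (1.28%, other genes 2.92%) and the ZNF143 motif (TACAATTCC) in MRPL24 alone (1.28%, other genes 0.498%). The core of the interferon-stimulated response element (GAAANNGAA), to which interferon-activated factors bind, was found in 4 members (5.13%), in 5.60% of other genes and in 14.5% of cytosolic ribosomal protein genes. These 4 genes are named although no rule asked for them. MRPL21 had a difference of -0.90, MRPL39 of -0.83, MRPL50 of -0.70 and MRPS18B of -0.86, all within 0.25 of their matched medians. A match is a stretch of letters and was not tested for binding.

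**Figure D3:**
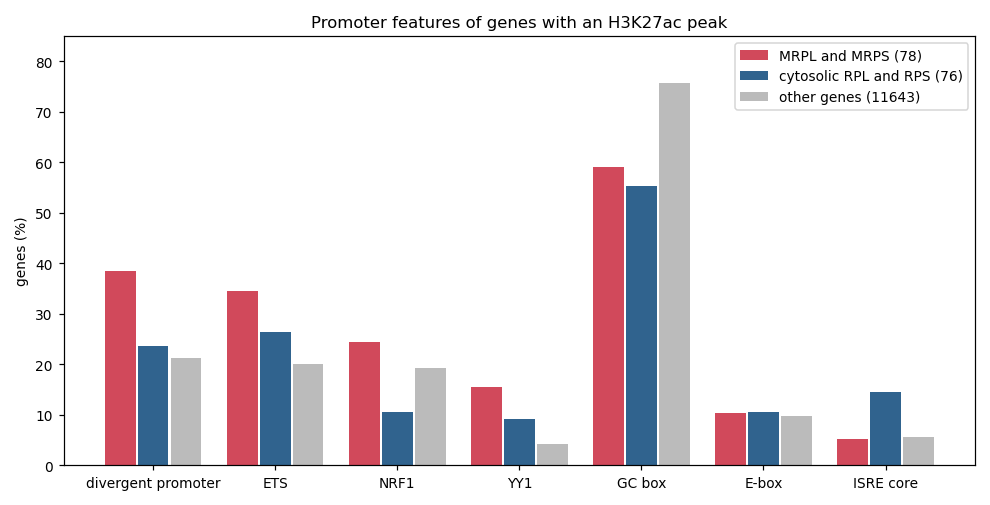
Share of genes (y axis, percent, from 0) with a divergent promoter or with each motif in the 300 bases around the start, for 78 MRPL and MRPS genes (red), 76 cytosolic ribosomal protein genes (blue) and 11643 other genes with a promoter peak (grey). The red bar is higher than the grey one for divergent promoters (38.5% and 21.2%), ETS (34.6% and 20.0%) and YY1 (15.4% and 4.14%), and lower for the GC box (59.0% and 75.8%).

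A further list of 6 genes held mitochondrial ribosomal proteins with other names and also OXA1L, which is not a ribosomal protein. Of these genes 6 of 6 had a promoter peak. Their median control signal was 6.29 and their median difference -0.71. CHCHD1 (-1.06) was the only one lower by more than 1, followed by DAP3 (-0.95), which binds GTP in the small subunit, while GADD45GIP1 (-0.66) was nearest to the control, followed by PTCD3 and AURKAIP1 (both -0.70). None was higher than in the control.

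All 27 genes for assembly of the ribosome had a peak too, with medians of 5.86 and -0.69. In this list 3 genes (11.1%) were lower by more than 1, with MPV17L2 (-1.27) and the helicase DDX28 (-1.04) lowest. NGRN (-0.48) was among the 2 highest, and GTPBP10, a GTPase of large subunit assembly, was at 3.31 in control cells and 3.66 after IFN-β, a difference of 0.35. GTPBP10 was the only gene of these mitochondrial lists with a higher signal after IFN-β, against 2.09% over all genes with a promoter peak. Its control signal was low, below the lower quartile of other genes (4.91), and carries no replicate error.

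The 15 translation factors had medians of 5.60 and -0.78, and 3 of 15 were lower by more than 1. MTFMT, which formylates the initiator tRNA, had a difference of -1.29, and PDF, which removes the formyl group again, of -1.07. The elongation factor GFM1 (-0.62) and the ribosome recycling factor GFM2 (-0.36) were at the upper end. The 20 genes for tRNA synthetases and the related amidotransferase had medians of 5.64 and -0.66, with 3 of 20 lower by more than 1. IARS2 (-1.52) and FARS2 (-1.10) were lowest, and EARS2 (-0.31) and LARS2 (-0.23) highest. Of them 45.0% were divergent, and SARS2 has its peak in common with MRPS12.

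For 12 genes that copy or transcribe mitochondrial DNA, or regulate such genes, the medians were 6.00 and -0.73. MTERF1 (-1.21) was the only one lower by more than 1, the mitochondrial RNA polymerase POLRMT followed at -0.88, and SSBP1 (-0.45) and TEFM (-0.42) were highest. Cytosolic ribosomal protein genes had a peak in 76 of 82 cases (92.7%), with medians of 6.34 and -0.81. Of these 76 genes, 15 (19.7%) were lower by more than 1 and none was higher. RPL36A (-1.52) and RPS10 (-1.38) were lowest, and RPL24 (-0.31) was highest. The list medians of the difference ran from -0.81 to -0.66.

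**Figure D4:**
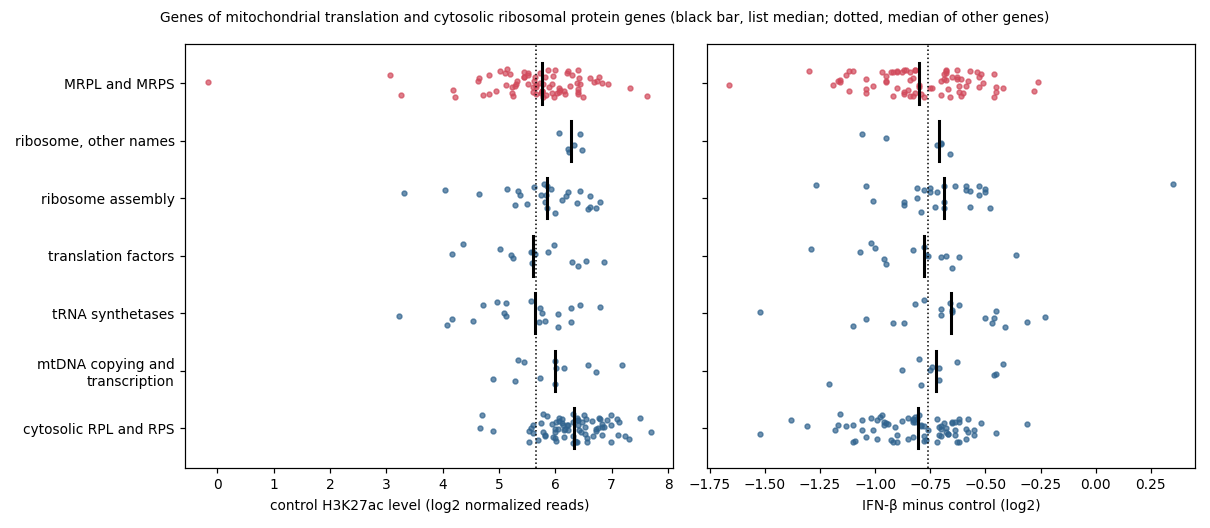
Control signal (left, log2 normalized reads) and difference between IFN-β and control (right, log2) for each gene with a promoter peak, by list, with a black bar at the list median and a dotted line at the median of the other genes (5.66 and -0.76). The cytosolic ribosomal protein genes are shifted to the right in the left panel (median 6.34 against 5.76 for MRPL and MRPS), while the list medians in the right panel stay between -0.81 and -0.66.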

How the data were processed

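H3K27ac ChIP-seq reads were processed by the authors with bcl2fastq 2.17, fastp 0.19.3 and bowtie2 on GRCh38, peaks were called per library with MACS2 against the input, and DiffBind with DESeq2 merged, counted and compared them. The deposited table gives 20087 peaks with the log2 of mean normalized reads over all H3K27ac libraries and per group, scaled by the authors for library size, so a change shared by all peaks depends on that scaling. The 2 group values were checked to average to the overall value within 0.0097. The authors' own columns of log2 fold change, p-value and FDR were not used. Values per library, the input and the reads were not analysed here.

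Genes and starts were from GENCODE 44. Peaks, motifs, GC content and 31-base words were computed with Python 3.11.15, numpy 2.4.6, pandas 2.3.3, scipy 1.17.1, pysam 0.24.0, numba 0.67.0 and matplotlib 3.10.9, with sequence from the GRCh38 reference and repeats counted without its alternate sequences. The join of genes to peaks was tested on simulated data.

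The members, lists and motifs were chosen with earlier results of these data known. Named are the 8 highest and 8 lowest members by control signal, the 6 highest and 6 lowest by difference, shared and wide peaks and the 2 highest and 2 lowest differences of each list. A gene under this rule is not reported here. Because MRPL23 stands at the lowest values of the table, MRPL30 and MRPL43 are given as well. Genes named for a motif, a partner, a distance or several peaks were picked after their values were seen. Sequences are printed for 6 members. Alternatives changed the distance, the starts used, the peak per gene, the matching, the thresholds, the windows and the members included.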

Additional observations from a re-analysis of the deposited data

How the results depend on the processing

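No paired analysis was possible because the table gives group means only, and for the same reason no library could be left out. Of 67 alternatives, 58 left the value within the limits set, which were 0.1 on the log2 scale, 1.5 times for a count, the binomial confidence interval for a share and 1 SD for GC content. The other 9 moved it, and no log2 value changed sign. The median control signal stayed between 5.73 and 5.76, the median difference between -0.82 and -0.80 and the median offset from matched peaks between -0.06 and -0.01. The count of members with a promoter peak was 48 without the divergent members, which is fewer by construction, and 74 when only the start of the gene was used. The count lower by more than 1 was 0 after centring on the median of all genes (-0.76), against 14 as reported. With the threshold moved it was 71 at -0.5 and 1 at -1.5. The count higher than the control was 36 after centring against 0. Shares over all genes were not counted at these settings. The upper quartile of the difference among other genes was -0.57, so most of them were below -0.5 too. In the 1000 bp around the peak centre the share of members with a motif was 39.7% for NRF1 (other genes 32.7%), 82.1% for the GC box (93.1%), 16.7% for the TATA box (14.4%) and 17.9% for the ISRE core (18.8%), in a window that is longer for all genes. This window turned the order of members and other genes for the TATA box, for the E-box (17.9% and 21.5%) and for the CCAAT box (11.5% and 12.2%). The comparisons within the GC quartiles and those without the 2 members with repeated sequence were chosen after seeing the data. Small differences between genes cannot be judged without the spread between libraries.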
